A study of Homo sapiens with 18 samples.

Results

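The genes described here are 37 members of the oxidative stress response: targets of the transcription factor NRF2, its own regulators, and the enzymes that remove superoxide and peroxides. They were taken by gene symbol from a table of raw counts for 58735 genes, and all 37 were found there. The RNA came from PODO/TERT256, a human podocyte line, in 18 libraries that form 6 groups of 3. Podocytes are the epithelial cells that wrap the capillaries of the kidney glomerulus. In all groups the same line grew on 3D hemispheres, whose surface was fractal or smooth. On each surface the cells met macrophages derived from the THP-1 monocytic line, received the cytokines TNF-α and IL-6, or were left as untreated controls. The labels give no dose and no duration, and do not say whether macrophages were removed before RNA was taken. They leave unsaid what the 3 libraries of each group share, so a p-value here measures library-to-library variation, which could be technical in part or in whole.

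NRF2, encoded by NFE2L2, is made constantly and destroyed constantly: KEAP1 binds it and passes it to a ubiquitin ligase. Oxidants and electrophiles modify cysteines of KEAP1, NRF2 then accumulates, pairs with small MAF proteins and binds antioxidant response elements in the promoters of its targets, which supply glutathione, thioredoxin, NADPH, quinone and heme detoxification, iron storage and drug export. Superoxide dismutases turn superoxide into hydrogen peroxide, which catalase, glutathione peroxidases and peroxiredoxins remove. Not every member answers to NRF2 alone; SOD2, for example, is also a textbook target of NF-κB. Oxidant injury of podocytes is a recognised feature of proteinuric kidney disease.

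The antioxidant response element has a core of letters TGACNNNGC, which was searched on both strands in the 250 bases before each annotated transcription start (RefSeq, GRCh38.p14). Sequences were at hand for 28 of the 37 members, with 40 windows. The core was found in 8 of these windows (20.0%), belonging to 7 genes (ABCC4, GCLM, GPX2, KEAP1, ME1, PGD and TXNRD1), against 3830 of all 35116 windows (10.91%). The spelling of the core with TCA as its open letters, TGACTCAGC, stood in 160 windows (0.46%) and, among the members, only in that of ME1. A match is a description of letters and not a measured binding site. The windows of 4 members are shown because they hold the core and because their genes took different courses below: TXNRD1 (chr12:104215529-104215778, plus strand), KEAP1 (chr19:10502772-10503021, minus strand), GCLM (chr1:93909431-93909680, minus strand) and ME1 (chr6:83431052-83431301, minus strand). Each reads 5′ to 3′ on the gene's strand and ends at the base before the start, with the core in capitals.
TXNRD1: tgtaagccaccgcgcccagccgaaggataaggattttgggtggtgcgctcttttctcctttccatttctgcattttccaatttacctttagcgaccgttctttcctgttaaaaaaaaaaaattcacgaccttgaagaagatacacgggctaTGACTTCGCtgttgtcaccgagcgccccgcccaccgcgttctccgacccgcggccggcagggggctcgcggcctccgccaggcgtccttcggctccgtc
KEAP1: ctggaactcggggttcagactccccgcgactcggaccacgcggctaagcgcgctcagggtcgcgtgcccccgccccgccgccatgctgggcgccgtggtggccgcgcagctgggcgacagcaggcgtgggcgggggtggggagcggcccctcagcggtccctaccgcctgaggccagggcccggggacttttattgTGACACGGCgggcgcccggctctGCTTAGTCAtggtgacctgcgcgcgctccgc
GCLM: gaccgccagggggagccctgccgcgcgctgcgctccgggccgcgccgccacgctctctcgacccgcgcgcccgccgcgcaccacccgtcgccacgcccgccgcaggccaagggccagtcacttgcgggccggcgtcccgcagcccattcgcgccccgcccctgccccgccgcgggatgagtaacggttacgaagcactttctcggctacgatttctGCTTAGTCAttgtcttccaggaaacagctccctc
ME1: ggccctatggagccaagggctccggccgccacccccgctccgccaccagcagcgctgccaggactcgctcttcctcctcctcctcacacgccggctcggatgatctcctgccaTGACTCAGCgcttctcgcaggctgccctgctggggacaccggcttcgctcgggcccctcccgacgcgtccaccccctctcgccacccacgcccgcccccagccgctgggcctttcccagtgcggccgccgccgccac

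In the TXNRD1 window the core lay 99 to 91 bases before the start. That of KEAP1 held it on each strand, 54 to 46 and 31 to 23 bases before the start, and the copy nearer the start had the same letters, read on the gene's strand, as the one in GCLM 34 to 26 bases before its start (GCTTAGTCA). In ME1 it lay 137 to 129 bases before. No window of SOD2, GPX3, AKR1B1, AKR1C2, AKR1C3 or NQO1 held these letters, which says only that they are not in those stretches.

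Library totals ran from 11488204 to 21264180 counts. Fractal THP-1 replicate 3 stood apart, with 17934 genes detected and 0.847% of counts from mitochondrial genes, against 4.39% and 4.47% in the other libraries of its group; smooth cytokines replicate 2 had 8.09%, against 4.22% and 4.63%. Results that rest on either are given with and without it. Of 10 podocyte markers, NPHS1 had 6 counts and WT1 37 in all 18 libraries, while SYNPO, CD2AP, PODXL and PLA2R1 were detected throughout. The summed level of 23 macrophage markers, in normalised read counts (CPM, counts scaled to library size with TMM factors), ran from 27.1 to 28.3 with THP-1 on the fractal surface and 47.9 to 56.5 with THP-1 on the smooth one. It was 4.89 to 6.98 and 11.6 to 15.3 with cytokines, 5.87 to 8.03 in fractal controls and 6.56 to 7.32 in smooth controls. The markers did not share this pattern evenly. LAPTM5 had 93, 123 and 19 counts with THP-1 on fractal and 247, 239 and 231 on smooth. Over all 18 libraries CD68 and LYZ had only 5 counts each, AIF1 7 and MRC1 3, and MARCO and C1QB had no count anywhere. Other marker lists also differed between groups. The summed level of 6 endothelial markers was 14.5 to 21.02 CPM with THP-1 on fractal and 23.1 to 24.4 on smooth, 5.89 to 8.11 and 11.02 to 11.9 with cytokines on fractal and smooth, against 8.49 to 12.1 in fractal and 9.85 to 11.7 in smooth controls. That of 6 mesangial and fibroblast markers was 26.9 to 36.9 CPM with THP-1 on fractal and 24.3 to 28.8 on smooth, 55.4 to 62.1 and 36.1 to 52.3 with cytokines on fractal and smooth, against 37.8 to 41.2 and 31.2 to 36.99 in fractal and smooth controls. The 10 podocyte markers summed to 261 to 279.5 CPM with THP-1 on fractal and 214 to 245 on smooth, 334 to 359 and 318 to 371 with cytokines on fractal and smooth, against 269 to 290.4 and 276 to 282 in fractal and smooth controls, and 6 tubule markers stayed within 0.459 to 5.14 CPM. Some of these ranges, the macrophage ones with THP-1 included, lie apart from those of the controls of their surface, and others overlap them. The part of these marker levels in the results below was not tested. In bulk RNA, fewer cells of a type and less RNA per cell cannot be told apart.

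Of the 37 members, 34 had enough counts to be tested among 16129 genes with edgeR's quasi-likelihood test, and a member is called here where its Benjamini-Hochberg adjusted p was under 0.05. Log2 fold changes are given ± their standard error (SE). With cytokines on the fractal surface 13 members rose and 5 fell, where 13.0% of all genes rose and 12.9% fell. On the smooth surface 15 rose and 2 fell, against 13.2% and 12.4% of all genes. With THP-1 macrophages 13 rose and 7 fell on the fractal surface, against 25.0% and 25.5%. On the smooth surface 13 rose and 7 fell, against 17.3% and 17.7%. The members' median log2 fold change was 0.14 and 0.25 for cytokines on fractal and smooth, where the median of all genes was 0.026 and 0.007. For THP-1 it was 0.11 and 0.22, with all genes at 0.041 and 0.015. The treatments share their control libraries.

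Between surfaces, fewer members differed. In controls 2 were higher on fractal and 0 lower, against 0.651% and 1.12% of all genes. With cytokines 4 were higher and 2 lower, against 1.72% and 2.74%. With THP-1 5 were higher and 3 lower, against 8.25% and 11.7%. The interaction, which is the response on fractal minus the response on smooth, was positive for 0 and negative for 3 members with cytokines (1.28% and 1.43% of all genes). With THP-1 it was positive for 3 and negative for 5 (5.35% and 7.88%). With upper-quartile scaling these were 4 and 4, where all genes gave 1077 and 1014 of 16129. For the count of 0 lower members in controls by edgeR, 2 had an unadjusted p under 0.05 and DESeq2 called 0. For the count of 0 positive cytokine interactions by edgeR, 3 had an unadjusted p under 0.05 and DESeq2 called 0. The directions moved with the setting. In controls, higher and lower members numbered 4 and 2 without fractal THP-1 replicate 3, 6 and 2 when smooth cytokines replicate 2 was left out as well, and 13 and 2 when only the groups compared were fitted. The numbers over all genes moved too, from 105 and 181 of 16129 to 411 and 437 of 16661, 577 and 611 of 16569 and 1420 and 1335 of 14187. With THP-1 the members numbered 5 and 7, 5 and 8 and 4 and 0 in the same order, and 7 and 3 with upper-quartile scaling. All genes there gave 1514 and 2333 of 16661, 1695 and 2527 of 16569, 584 and 828 of 14983, and 1625 and 1626 of 16129. Positive and negative cytokine interactions of members numbered 2 and 7, 2 and 6 and 2 and 6 in that order, and 1 and 3 with no filter. Those of all genes were 524 and 606 of 16661, 689 and 772 of 16569, 452 and 531 of 15203, and 272 and 334 of 33741. In all, 28 members were called in at least 1 of the 9 comparisons. The share of all genes called in at least 1 was not counted, and THP-1 on fractal alone called 50.5% of them. NFE2L2, SRXN1, ME1, ABCC1, ABCC2 and SOD1 were called in none, and GPX2, AKR1B10 and SOD3 were too low to test.

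Over the 9 comparisons together there were 102 calls of members. Without smooth cytokines replicate 2, 99 of them were kept, 3 were lost and 4 were gained. In that fit the treatments on fractal and smooth gave 18 and 17 calls for cytokines (25.3% and 24.0% of all genes) and 20 and 22 for THP-1 (49.2% and 34.2%). Fractal against smooth then gave 2 calls in controls (2.06%), 4 with cytokines (4.42%) and 9 with THP-1 (19.6%), and the interactions 3 for cytokines (3.18%) and 8 for THP-1 (13.2%). Without fractal THP-1 replicate 3, 98 were kept, 4 lost and 40 gained. In that fit the treatments on fractal and smooth gave 22 and 19 calls for cytokines (33.4% and 33.1% of all genes) and 21 and 24 for THP-1 (51.6% and 42.6%). Fractal against smooth then gave 6 calls in controls (5.09%), 13 with cytokines (7.76%) and 12 with THP-1 (23.1%), and the interactions 9 for cytokines (6.78%) and 12 for THP-1 (19.6%). Gains appeared also in comparisons whose groups do not hold this library.

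**Figure D1:**
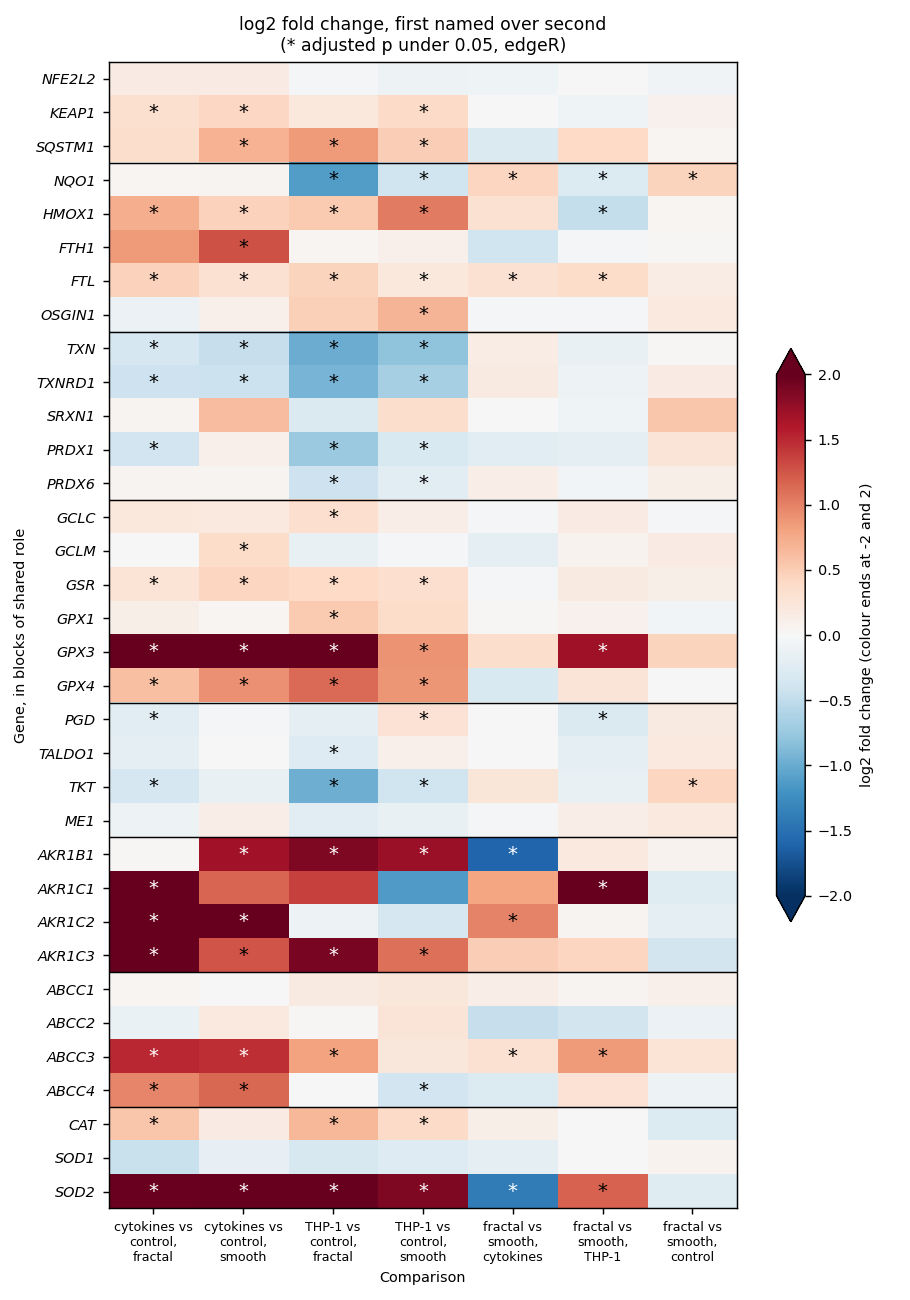
Log2 fold changes of the 34 tested members (rows, in blocks of shared role) in 7 comparisons (columns, first named group over second), from red for higher to blue for lower, with colours ending at -2 and 2. Stars mark adjusted p under 0.05. SOD2 is red in the 4 treatment columns, TXN and TXNRD1 are blue in all 4, and AKR1B1 is red in 3 of them and at 0.021 with cytokines on fractal.

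The transcription factor itself was called in no comparison, while its regulators KEAP1 and SQSTM1 rose with treatment. NFE2L2 (chromosome 2, 177227595 to 177392697 on GRCh38) had 123, 127 and 86.5 CPM with THP-1 on fractal and 112, 122 and 103 CPM with THP-1 on smooth. It had 129, 122 and 133 CPM with cytokines on fractal and 142, 136 and 129 CPM on smooth, against 113, 114 and 116 CPM in fractal and 123, 118 and 121 CPM in smooth controls. Apart from 86.5 CPM in fractal THP-1 replicate 3, the libraries ran from 103 to 142 CPM. Those with cytokines lay above the controls of their surface. Its log2 fold changes ran from -0.10 for THP-1 on smooth to 0.17 for cytokines on smooth, and none passed the test (adjusted p = 0.238 for cytokines on smooth, and 0.0413 without fractal THP-1 replicate 3). Its exons overlap AGPS on the other strand, and the libraries kept no strand.

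KEAP1, the repressor that holds NRF2, rose with cytokines on smooth to 50.5, 57.6 and 63.4 CPM, against 45.5, 39.98 and 42.8 CPM in smooth controls (log2 fold change 0.42 ± 0.11, adjusted p = 0.00613). It also rose with THP-1 on smooth, where it had 55.1, 56.6 and 55.2 CPM (log2 fold change 0.38 ± 0.11, adjusted p = 0.00959), and with cytokines on fractal, where it had 59.9, 54.8 and 55.7 CPM, against 41.7, 45.5 and 49.6 CPM in fractal controls (log2 fold change 0.32 ± 0.11, adjusted p = 0.0367). With THP-1 on fractal it had 44.95, 48.8 and 64.7 CPM and was not called (0.21, adjusted p = 0.127, and 0.034 without replicate 3). For cytokines on smooth leaving out smooth cytokines replicate 3 lost the call (adjusted p = 0.0659), for THP-1 on smooth leaving out smooth control replicate 2 lost the call (adjusted p = 0.0581), and for cytokines on fractal leaving out any 1 of smooth control replicate 1, fractal control replicate 1 or 2, smooth cytokines replicate 1 or 3, fractal cytokines replicate 1, 2 or 3 or smooth THP-1 replicate 2 or 3 lost the call (adjusted p up to 0.198).

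SQSTM1, the autophagy receptor p62 that competes with NRF2 for KEAP1, had 208, 213 and 224 CPM with cytokines on smooth, against 133, 132 and 133 CPM in smooth controls (log2 fold change 0.69 ± 0.15, adjusted p = 0.00202). With THP-1 it had 197, 191 and 353 CPM on fractal, against 133, 137 and 142 CPM in fractal controls (log2 fold change 0.85 ± 0.15, adjusted p = 0.000131). The rise on fractal was 0.49 without replicate 3, the highest of those libraries. On smooth it had 186, 186 and 191 CPM with THP-1 (log2 fold change 0.50 ± 0.15, adjusted p = 0.0158). Cytokines on fractal gave 175, 184 and 168 CPM, all above the fractal controls, with adjusted p = 0.0972 and, without fractal THP-1 replicate 3, 5.8e-06. Reads of MGAT4B and MRNIP, which overlap it on the other strand, cannot be told apart from its own.

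The quinone, heme and iron genes did not move as a block. NQO1, the quinone reductase often used as a readout of NRF2 activity, fell with THP-1 and was not called with cytokines. HMOX1, which breaks down heme, and FTL, the ferritin light chain, rose with both treatments on both surfaces. FTH1, the ferritin heavy chain, rose with cytokines on smooth, and OSGIN1, a stress-induced growth inhibitor, with THP-1 on smooth.

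NQO1 (chromosome 16, 69706996 to 69726951) had 75.1, 68.4 and 72.1 CPM with THP-1 on fractal, against 157, 153 and 157 CPM in fractal controls (log2 fold change -1.11 ± 0.080, adjusted p = 2.05e-11). On smooth it had 87.4, 85.04 and 87.5 CPM with THP-1, against 117, 111 and 113 CPM in controls (log2 fold change -0.39 ± 0.080, adjusted p = 0.000363). The THP-1 libraries lie below the controls on both surfaces. Cytokines gave 171, 145 and 163 CPM on fractal and 105, 129 and 121 CPM on smooth, with log2 fold changes of 0.038 and 0.060 that missed the threshold (adjusted p = 0.78 and 0.643). NQO1 was higher on fractal than on smooth in controls (log2 fold change 0.45 ± 0.079, adjusted p = 0.00181) and with cytokines (log2 fold change 0.43 ± 0.079, adjusted p = 0.000824), and lower on fractal with THP-1 (log2 fold change -0.27 ± 0.080, adjusted p = 0.0181). In that last comparison leaving out any 1 of smooth THP-1 replicate 1 or 3 or fractal THP-1 replicate 2 lost the call (adjusted p up to 0.067), and adjusted p was 0.0969 when only the groups compared were fitted.

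HMOX1 had 27.7, 26.03 and 19.8 CPM with THP-1 on fractal, against 17.3, 17.5 and 16.6 CPM in fractal controls (log2 fold change 0.52 ± 0.12, adjusted p = 0.000768). On smooth THP-1 gave 31.2, 36.8 and 34.8 CPM, against 15.3, 16.3 and 18.5 CPM in controls (log2 fold change 1.04 ± 0.12, adjusted p = 1.94e-07). Cytokines gave 28.7, 27.4 and 29.05 CPM on fractal (log2 fold change 0.73 ± 0.12, adjusted p = 4.68e-05) and 21.9, 23.8 and 23.5 CPM on smooth (log2 fold change 0.47 ± 0.12, adjusted p = 0.005). Every treated library lay above the controls of its surface. With THP-1 HMOX1 was lower on fractal than on smooth (log2 fold change -0.48 ± 0.12, adjusted p = 0.00444; 0.0879 when only the groups compared were fitted).

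FTH1 had 1418, 1336 and 1503 CPM with cytokines on smooth, against 559.6, 585 and 611 CPM in smooth controls (log2 fold change 1.28 ± 0.31, adjusted p = 0.00773). On fractal cytokines gave 1191, 1159.8 and 887 CPM, against 615, 591 and 587 CPM (log2 fold change 0.85 ± 0.31, adjusted p = 0.0589); all 3 lie above the controls, and without fractal THP-1 replicate 3 adjusted p was 2.11e-10. With THP-1 the fractal libraries had 800.2, 790.2 and 248 CPM and the smooth ones 662, 650.1 and 577 CPM. Replicate 3 is less than the 2 others and than any control, so that the THP-1 value on fractal, 0.038 and not called, became 0.41 without it (adjusted p = 0.000154). FTL had 659, 639 and 547 CPM with THP-1 on fractal, against 432, 473 and 454 CPM in controls (log2 fold change 0.44 ± 0.077, adjusted p = 3.65e-05). Its other rises were 0.46 (SE 0.077, adjusted p = 6.11e-05) with cytokines on fractal, 0.30 (SE 0.077, adjusted p = 0.00488) with cytokines on smooth and 0.21 (SE 0.077, adjusted p = 0.0348) with THP-1 on smooth. For THP-1 on smooth leaving out any 1 of smooth control replicate 1, 2 or 3, fractal control replicate 2 or 3, smooth cytokines replicate 1, fractal cytokines replicate 3 or smooth THP-1 replicate 1, 2 or 3 lost the call (adjusted p up to 0.118). FTL was higher on fractal than on smooth with cytokines (log2 fold change 0.31 ± 0.077, adjusted p = 0.0174) and with THP-1 (log2 fold change 0.37 ± 0.077, adjusted p = 0.00102); for cytokines leaving out any 1 of smooth cytokines replicate 1 or 3 or fractal cytokines replicate 2 or 3 lost the call (adjusted p up to 0.155). Reads from the 25 FTH1 and 16 FTL pseudogenes in the annotation may be shared, although these held only 2446 and 53 counts.

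OSGIN1 was a low gene, with 5.11, 5.01 and 5.17 CPM with THP-1 on smooth, against 3.58, 3.57 and 2.32 CPM in smooth controls (log2 fold change 0.68 ± 0.25, adjusted p = 0.0341). There, leaving out any 1 of smooth control replicate 3 or smooth THP-1 replicate 1, 2 or 3 lost the call (adjusted p up to 0.173).

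Of the 5 members of the thioredoxin branch, 4 fell in at least 2 of the 4 treatment comparisons and none rose by a call. TXN, thioredoxin itself, and TXNRD1, the reductase that recharges it with NADPH, fell with both treatments on both surfaces. PRDX1, a peroxiredoxin that thioredoxin reduces, fell in 3 of the 4 treatment comparisons and PRDX6 in 2. SRXN1, the sulfiredoxin that repairs overoxidised peroxiredoxins, was called in none, with log2 fold changes between -0.29 (THP-1 on fractal) and 0.61 (cytokines on smooth).

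TXN had 68.1, 71.2 and 79.6 CPM with THP-1 on fractal, against 136, 147 and 151 CPM in fractal controls (log2 fold change -0.99 ± 0.087, adjusted p = 8.75e-10). It had 84.3, 76.3 and 81.98 CPM with THP-1 on smooth, against 138, 143 and 145 CPM in smooth controls (log2 fold change -0.81 ± 0.087, adjusted p = 5.8e-08). With cytokines it had 109, 113 and 122 CPM on fractal (log2 fold change -0.33 ± 0.086, adjusted p = 0.00485) and 94.3, 118 and 97.4 CPM on smooth (log2 fold change -0.46 ± 0.086, adjusted p = 0.000205). No treated library reached the lowest control of its surface. TXNRD1, whose promoter window above holds the core, had 248, 237 and 269 CPM with THP-1 on fractal, against 476, 461 and 499.7 CPM in fractal controls (log2 fold change -0.93 ± 0.098, adjusted p = 1.85e-08). On smooth it had 301, 267 and 243 CPM, against 426, 423 and 433 CPM (log2 fold change -0.66 ± 0.098, adjusted p = 7.99e-06). With cytokines it had 397, 305 and 380.02 CPM on fractal (log2 fold change -0.41 ± 0.097, adjusted p = 0.00257) and 301, 362 and 292 CPM on smooth (log2 fold change -0.42 ± 0.097, adjusted p = 0.00182). Again the treated and control libraries do not overlap. Neither gene differed by a call between fractal and smooth in any condition; with THP-1 the differences were -0.15 and -0.11, with 95% intervals of -0.32 to 0.021 and -0.30 to 0.084.

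PRDX1 had 146, 136 and 128 CPM with THP-1 on fractal, against 226, 230.1 and 232 CPM in fractal controls (log2 fold change -0.75 ± 0.072, adjusted p = 3.6e-09). On smooth THP-1 gave 155, 157 and 155 CPM, against 200.04, 195 and 180.3 CPM (log2 fold change -0.30 ± 0.071, adjusted p = 0.00161). Cytokines lowered it on fractal, to 182, 163 and 183 CPM (log2 fold change -0.38 ± 0.071, adjusted p = 0.000205), and gave 203, 208 and 207 CPM on smooth, above the smooth controls and not called (0.10, adjusted p = 0.319). PRDX6, which reduces phospholipid peroxides, fell with THP-1 to 128, 121 and 125 CPM on fractal, against 167, 167 and 162 CPM (log2 fold change -0.41 ± 0.068, adjusted p = 1.97e-05), and to 129, 129 and 129.8 CPM on smooth, against 152, 148 and 155 CPM (log2 fold change -0.23 ± 0.068, adjusted p = 0.0105). With cytokines its log2 fold changes were 0.055 on fractal and 0.054 on smooth.

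In the glutathione branch 2 peroxidases rose throughout. GPX3, the secreted plasma glutathione peroxidase, and GPX4, which removes lipid peroxides in membranes, rose in all 4 treatment comparisons, as did GSR, the reductase that regenerates glutathione. GCLC and GCLM, the catalytic and modifier subunits of the enzyme that starts glutathione synthesis, were each called in 1 of the 4. GPX2, the intestinal form, had 66 counts in all 18 libraries and was not tested.

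GPX3 (chromosome 5, 151020438 to 151028993) had 40.7, 37.9 and 31.1 CPM with THP-1 on fractal, against 8.60, 7.41 and 8.96 CPM in fractal controls (log2 fold change 2.14 ± 0.22, adjusted p = 9.64e-08). It had 13.5, 9.96 and 10.5 CPM with THP-1 on smooth, against 6.75, 5.87 and 5.58 CPM in smooth controls (log2 fold change 0.90 ± 0.24, adjusted p = 0.00624). Cytokines gave 80.3, 89.7 and 64.6 CPM on fractal (log2 fold change 3.24 ± 0.22, adjusted p = 1.8e-09) and 76.8, 69.4 and 38.1 CPM on smooth (log2 fold change 3.33 ± 0.23, adjusted p = 1.47e-09). All treated libraries exceed the controls of their surface; the lowest with cytokines on smooth is replicate 3. With THP-1 GPX3 was higher on fractal than on smooth (log2 fold change 1.70 ± 0.21, adjusted p = 8.18e-06), and the ranges do not overlap. In controls and with cytokines the differences of 0.45 and 0.35 missed the threshold (adjusted p = 0.499 and 0.46).

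GPX4 had 222, 215 and 283 CPM with THP-1 on fractal, against 106, 106 and 116 CPM in fractal controls (log2 fold change 1.13 ± 0.095, adjusted p = 3.23e-10). It had 193, 204 and 207 CPM with THP-1 on smooth, against 109, 107 and 111 CPM in smooth controls (log2 fold change 0.89 ± 0.095, adjusted p = 5.53e-08). Cytokines gave 161, 180.2 and 157 CPM on fractal (log2 fold change 0.60 ± 0.094, adjusted p = 2.51e-05) and 189, 229 and 197 CPM on smooth (log2 fold change 0.91 ± 0.095, adjusted p = 4.96e-08). GSR rose less, by 0.40 (SE 0.088, adjusted p = 0.00047) and 0.34 (SE 0.089, adjusted p = 0.00375) with THP-1 on fractal and smooth, by 0.43 (SE 0.088, adjusted p = 0.000629) with cytokines on smooth and by 0.27 (SE 0.088, adjusted p = 0.0264) with cytokines on fractal. In this last comparison leaving out any 1 of fractal control replicate 1, smooth cytokines replicate 1 or 3 or fractal cytokines replicate 1, 2 or 3 lost the call (adjusted p up to 0.216), and the value was 0.17 without fractal control 1. GPX1, the cytosolic glutathione peroxidase, had 231, 209 and 404 CPM with THP-1 on fractal, against 194, 196 and 200.1 CPM in controls (log2 fold change 0.52 ± 0.16, adjusted p = 0.0122). That rise rested on replicate 3: without it the value was 0.16 (adjusted p = 0.0633). On smooth GPX1 had 269, 252 and 270.00 CPM, against 195, 204 and 217 CPM (log2 fold change 0.36 ± 0.16, adjusted p = 0.091). There, the test called it when any 1 of fractal THP-1 replicate 2 or 3 was left out.

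GCLM, with the core in the window shown, had 85.2, 74.95 and 77.8 CPM with cytokines on smooth, against 63.4, 58.96 and 61.8 CPM in smooth controls (log2 fold change 0.37 ± 0.085, adjusted p = 0.00179). It had 74.2, 65.7 and 68.4 CPM with cytokines on fractal, against 70.3, 69.8 and 67.1 CPM (0.008, adjusted p = 0.96). With THP-1 its changes were -0.14 on fractal and -0.040 on smooth. GCLC rose with THP-1 on fractal, to 17.2, 14.9 and 16.4 CPM, against 11.2, 14.4 and 12.9 CPM (log2 fold change 0.33 ± 0.13, adjusted p = 0.0417), but leaving out any 1 of smooth control replicate 2 or 3, fractal control replicate 1 or 3, smooth cytokines replicate 1, 2 or 3, fractal cytokines replicate 1, 2 or 3, smooth THP-1 replicate 2 or 3 or fractal THP-1 replicate 1 or 3 lost the call (adjusted p up to 0.211).

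The members grouped here under NADPH supply do not all make NADPH themselves. With treatment, those of the pentose phosphate pathway fell where they were called, with 1 exception. ME1, the malic enzyme, was not called anywhere. TKT, the transketolase of the non-oxidative branch, had 260.4, 272 and 192 CPM with THP-1 on fractal, against 470.1, 475 and 485 CPM in fractal controls (log2 fold change -0.98 ± 0.096, adjusted p = 4.84e-09). On smooth THP-1 gave 277, 268 and 259.96 CPM, against 345, 358 and 354 CPM (log2 fold change -0.39 ± 0.095, adjusted p = 0.00208). Cytokines lowered it on fractal, to 379, 378 and 369.8 CPM (log2 fold change -0.34 ± 0.095, adjusted p = 0.00839), and gave 288, 351 and 314 CPM on smooth (log2 fold change -0.15 ± 0.095, adjusted p = 0.271), where the ranges overlap those of the controls. TKT was higher on fractal than on smooth in controls (log2 fold change 0.44 ± 0.095, adjusted p = 0.0125), the other call besides NQO1 in that comparison; leaving out any 1 of smooth control replicate 1, 2 or 3 or fractal control replicate 2 or 3 lost the call (adjusted p up to 0.0789).

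PGD, which makes NADPH from 6-phosphogluconate, was the exception. It rose with THP-1 on smooth, with 125, 124 and 122 CPM, against 97.1, 103 and 103 CPM in smooth controls (log2 fold change 0.29 ± 0.073, adjusted p = 0.00269). It had 97.2, 96.1 and 113 CPM with THP-1 on fractal, against 112, 115 and 118 CPM in fractal controls (log2 fold change -0.17 ± 0.073, adjusted p = 0.0513). The fractal value missed the threshold in the fit of all libraries, but the test called it when any 1 of smooth control replicate 1, smooth cytokines replicate 1, 2 or 3, fractal cytokines replicate 1, 2 or 3, smooth THP-1 replicate 1 or 3 or fractal THP-1 replicate 3 was left out. Directly compared with THP-1, it was lower on fractal (log2 fold change -0.28 ± 0.073, adjusted p = 0.00725; 0.109 when only the groups compared were fitted). With cytokines on fractal it fell (log2 fold change -0.22 ± 0.073, adjusted p = 0.0245). There, leaving out any 1 of fractal control replicate 2 or 3 lost the call (adjusted p up to 0.0843). TALDO1, the transaldolase, had 136, 140.3 and 199.8 CPM with THP-1 on fractal, against 198, 186 and 186 CPM (log2 fold change -0.26 ± 0.10, adjusted p = 0.0384). Replicate 3 is the highest of the 3, and the value was -0.47 without it, while leaving out any 1 of fractal control replicate 1, 2 or 3 or fractal THP-1 replicate 1 or 2 lost the call (adjusted p up to 0.196). ME1, although its window holds the core as TGACTCAGC, had log2 fold changes of -0.10 and 0.13 with cytokines and -0.21 and -0.15 with THP-1, on fractal and smooth in turn.

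Among the aldo-keto reductases, which reduce aldehydes, ketones and steroids, AKR1B1 responded to cytokines on smooth and not by a call on fractal. AKR1B1 (chromosome 7, 134442350 to 134459284), the aldose reductase of the polyol pathway, had 124, 111 and 124 CPM with cytokines on fractal, against 115, 113 and 126 CPM in fractal controls (log2 fold change 0.021 ± 0.095, adjusted p = 0.903). On smooth cytokines gave 335, 316 and 428 CPM, against 109.9, 116 and 112 CPM in smooth controls (log2 fold change 1.67 ± 0.096, adjusted p = 1.35e-12). The smooth cytokine libraries lie far above all controls while the fractal ones lie among them, and AKR1B1 was lower on fractal with cytokines (log2 fold change -1.59 ± 0.096, adjusted p = 1.68e-11). With THP-1 it rose on both, to 407, 409 and 473 CPM on fractal (log2 fold change 1.87 ± 0.097, adjusted p = 3.86e-14) and 370.3, 368 and 385 CPM on smooth (log2 fold change 1.73 ± 0.097, adjusted p = 6.77e-13), with a difference of 0.20 between surfaces (adjusted p = 0.145). AKR1B10 had 51 counts in all libraries and was not tested.

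The 3 AKR1C genes rose with cytokines on fractal. AKR1C2 had 133, 212 and 135 counts with cytokines on fractal, against 23, 17 and 17 counts in fractal controls (log2 fold change 3.30 ± 0.32, adjusted p = 2.55e-08). It had 113, 79 and 68 counts with cytokines on smooth, against 18, 22 and 16 counts in smooth controls (log2 fold change 2.13 ± 0.33, adjusted p = 1.82e-05). With THP-1 it stayed between 8 and 19 counts, and its changes of -0.11 on fractal and -0.34 on smooth missed the threshold (adjusted p = 0.84 and 0.524); the fractal value was -0.37 without replicate 3. AKR1C3 had 14.4, 16.00 and 20.5 CPM with THP-1 on fractal, against 4.99, 4.41 and 4.13 CPM (log2 fold change 1.90 ± 0.20, adjusted p = 2.36e-08). It had 11.3, 14.5 and 11.7 CPM with THP-1 on smooth, against 4.76, 7.13 and 5.58 CPM (log2 fold change 1.10 ± 0.20, adjusted p = 0.000121). Cytokines gave 17.9, 24.6 and 16.3 CPM on fractal (log2 fold change 2.12 ± 0.20, adjusted p = 1.64e-08) and 17.4, 13.2 and 11.4 CPM on smooth (log2 fold change 1.26 ± 0.20, adjusted p = 2.93e-05). AKR1C1 was the lowest, with 35, 27 and 26 counts with cytokines on fractal, against 5, 13 and 5 counts (log2 fold change 2.20 ± 0.60, adjusted p = 0.00773). It was higher on fractal than on smooth with THP-1, with 12, 14 and 20 against 4, 3 and 4 counts (log2 fold change 2.25 ± 0.68, adjusted p = 0.0199). There, leaving out any 1 of smooth THP-1 replicate 1, 2 or 3 or fractal THP-1 replicate 3 lost the call (adjusted p up to 0.0792). AKR1C2 was higher on fractal with cytokines (log2 fold change 0.99 ± 0.28, adjusted p = 0.0383). There, leaving out any 1 of smooth cytokines replicate 2 or 3 or fractal cytokines replicate 1, 2 or 3 lost the call (adjusted p up to 0.291). The coding sequences of AKR1C1 and AKR1C2 are 98.0% identical over 972 bases, and AKR1C3 shares 91.5% and 91.0% with them, so reads may be split among these genes and the level of each is uncertain.

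Of the export pumps for glutathione and glucuronide conjugates, ABCC3 and ABCC4 rose with cytokines and ABCC1 and ABCC2 were not called. ABCC3 had 233, 233 and 245 CPM with cytokines on fractal, against 85.1, 83.6 and 80.3 CPM in fractal controls (log2 fold change 1.51 ± 0.088, adjusted p = 2.83e-12). It had 220.2, 173 and 180.3 CPM with cytokines on smooth, against 67.3, 71.2 and 67.7 CPM in smooth controls (log2 fold change 1.48 ± 0.088, adjusted p = 2.76e-12). With THP-1 it rose on fractal, to 142, 143 and 148 CPM (log2 fold change 0.80 ± 0.087, adjusted p = 3.28e-08). It had 70.4, 83.6 and 85.95 CPM on smooth (log2 fold change 0.22 ± 0.088, adjusted p = 0.0564). There, the test called it when any 1 of smooth cytokines replicate 1 or 2, smooth THP-1 replicate 1 or fractal THP-1 replicate 3 was left out. It was higher on fractal than on smooth with THP-1 (log2 fold change 0.85 ± 0.087, adjusted p = 7.17e-08) and with cytokines (log2 fold change 0.31 ± 0.085, adjusted p = 0.0338). For cytokines leaving out any 1 of fractal control replicate 2, smooth cytokines replicate 2 or 3 or fractal cytokines replicate 1, 2 or 3 lost the call (adjusted p up to 0.177). ABCC4 had 64.9, 60.4 and 62.6 CPM with cytokines on fractal, against 34.7, 28.8 and 32.4 CPM (log2 fold change 0.97 ± 0.12, adjusted p = 1.2e-06). It had 83.5, 68.8 and 75.00 CPM on smooth, against 35.7, 31.5 and 35.6 CPM (log2 fold change 1.15 ± 0.12, adjusted p = 8.06e-08). With THP-1 it fell on smooth (log2 fold change -0.38 ± 0.12, adjusted p = 0.0206). There, leaving out any 1 of smooth control replicate 1 or 3 or smooth THP-1 replicate 2 or 3 lost the call (adjusted p up to 0.0726). On fractal ABCC4 had 28.5, 26.7 and 41.4 CPM with THP-1, and the change of 0.004 was -0.21 without replicate 3 (adjusted p = 0.0699), the 2 others lying below all controls. ABCC1 ranged over 137 to 223 CPM in the 18 libraries and ABCC2 over 0 to 1.20 CPM.

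SOD2, the manganese superoxide dismutase of mitochondria, rose in all 4 treatment comparisons, and its order between surfaces differed between the treatments. SOD2 (chromosome 6, 159669057 to 159745186) had 773, 806 and 1072 CPM with THP-1 on fractal, against 88.5, 91.6 and 90.9 CPM in fractal controls (log2 fold change 3.29 ± 0.12, adjusted p = 4.16e-17). It had 395, 413 and 363 CPM with THP-1 on smooth, against 107, 111 and 105 CPM in smooth controls (log2 fold change 1.86 ± 0.11, adjusted p = 2.3e-12). With cytokines it had 320.5, 349 and 392 CPM on fractal (log2 fold change 1.97 ± 0.11, adjusted p = 1.71e-12) and 1005, 800.2 and 988 CPM on smooth (log2 fold change 3.12 ± 0.12, adjusted p = 2.94e-16). Every treated library was above every control. SOD2 was lower on fractal than on smooth with cytokines (log2 fold change -1.40 ± 0.11, adjusted p = 1.85e-09) and higher on fractal with THP-1 (log2 fold change 1.18 ± 0.11, adjusted p = 1.01e-08), and neither pair of ranges overlaps; in controls the difference was -0.25 (SE 0.11, adjusted p = 0.33). Its exons overlap WTAP on the other strand, which had 23637 counts, so part of the reads may not be its own.

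SOD1, the cytosolic copper-zinc enzyme, was not called. It had 69.98, 67.9 and 135 CPM with THP-1 on fractal, against 113, 113 and 113 CPM in fractal controls (log2 fold change -0.32 ± 0.18, adjusted p = 0.145); replicate 3 alone is above the controls, and without it the value was -0.72 (adjusted p = 3.57e-10). SOD3, the secreted form, had 16 counts in all libraries. CAT, the peroxisomal catalase, had 91.2, 90.2 and 61.03 CPM with THP-1 on fractal, against 49.7, 51.2 and 52.9 CPM (log2 fold change 0.66 ± 0.11, adjusted p = 1.79e-05). It had 81.8, 84.9 and 78.2 CPM with THP-1 on smooth, against 58.8, 67.5 and 60.6 CPM (log2 fold change 0.39 ± 0.11, adjusted p = 0.00668). Cytokines raised it on fractal, to 72.8, 74.6 and 78.2 CPM (log2 fold change 0.55 ± 0.11, adjusted p = 0.000445), and gave 67.9, 64.7 and 75.7 CPM on smooth (log2 fold change 0.16 ± 0.11, adjusted p = 0.33).

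**Figure D2:**
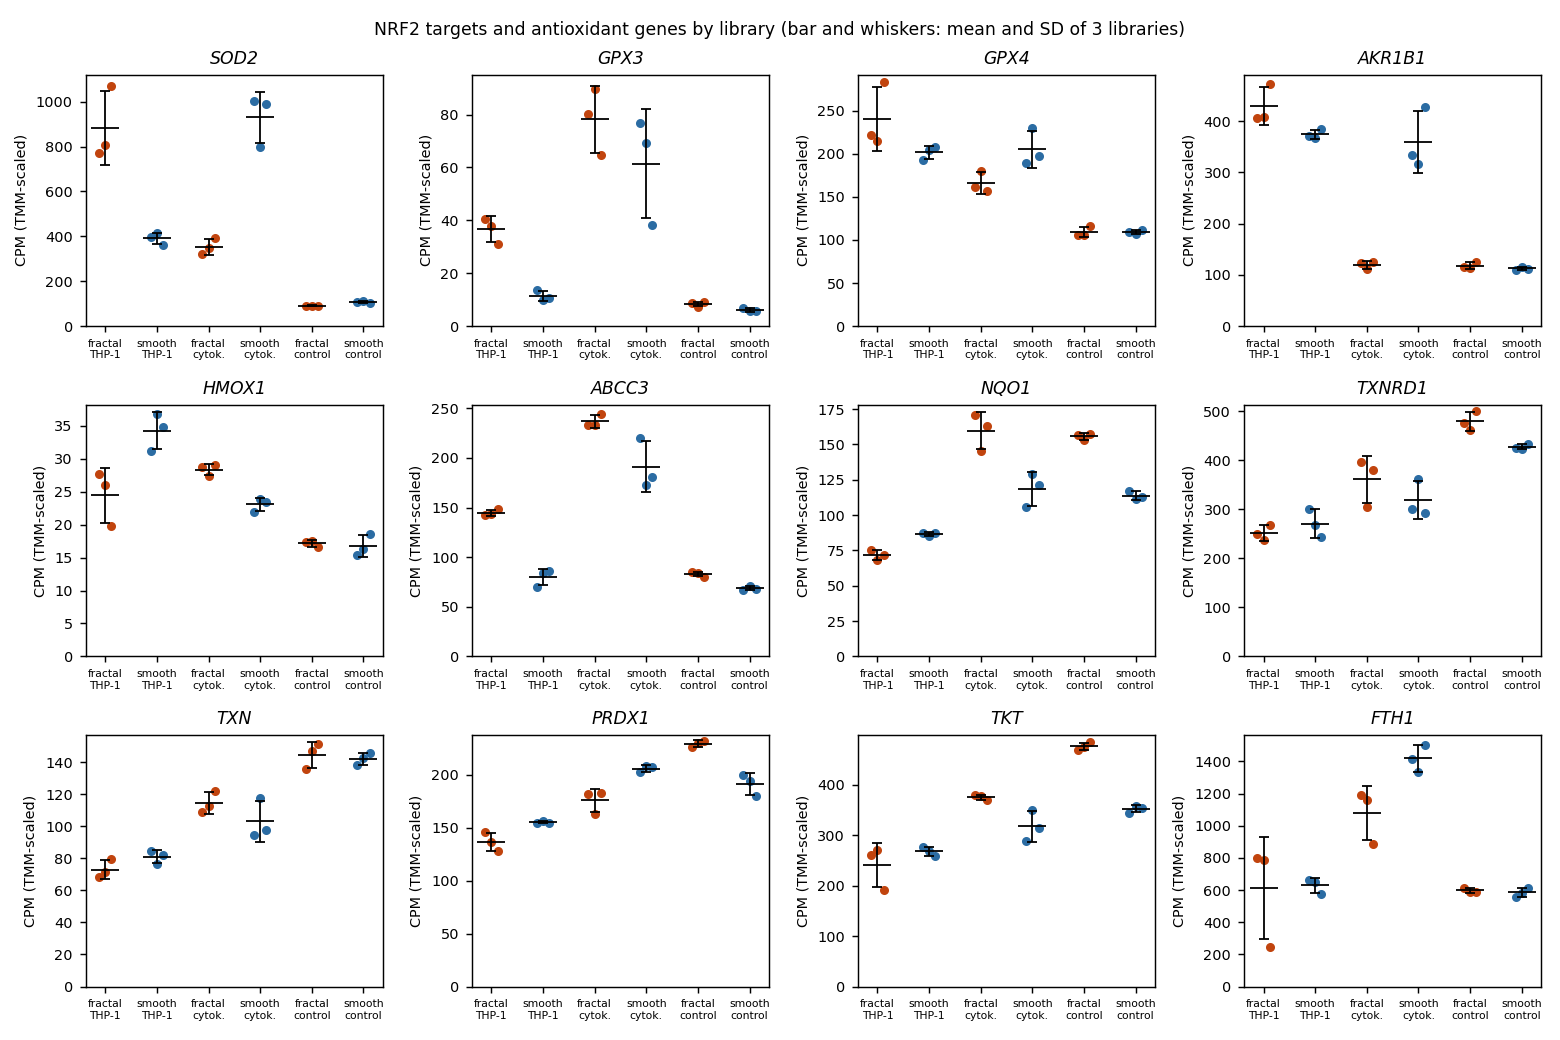
CPM (TMM-scaled, linear axes from 0) of 12 members, 1 point per library, in the 6 groups along the x axis, fractal in orange and smooth in blue, with bars for the mean and whiskers for the SD of 3 libraries. With cytokines the AKR1B1 points lie at 124, 111 and 124 on fractal and 335, 316 and 428 on smooth, and the lone low FTH1 point, at 248, is fractal THP-1 replicate 3.

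Whether a response differed between surfaces was tested by the interaction. With cytokines it was called for AKR1B1 (-1.65 ± 0.13, adjusted p = 2.8e-08), SOD2 (-1.15 ± 0.15, adjusted p = 3.26e-05) and PRDX1 (-0.49 ± 0.10, adjusted p = 0.00529), all 3 negative. SOD2 rose less on fractal, AKR1B1 rose on smooth and stood at 0.021 on fractal, and PRDX1 fell on fractal and stood at 0.10 on smooth. With THP-1 the interaction was positive for SOD2 (1.43 ± 0.15, adjusted p = 2.88e-07), GPX3 (1.25 ± 0.32, adjusted p = 0.0133) and ABCC3 (0.58 ± 0.12, adjusted p = 0.00204), whose changes were more positive on fractal. It was negative for NQO1 (-0.72 ± 0.11, adjusted p = 5.99e-05), TKT (-0.59 ± 0.13, adjusted p = 0.00366) and PRDX1 (-0.44 ± 0.10, adjusted p = 0.00351), which fell more on fractal. PGD (-0.47 ± 0.10, adjusted p = 0.00295) rose on smooth and had a negative change on fractal that was not called, and HMOX1 (-0.52 ± 0.17, adjusted p = 0.0431) rose less on fractal. For the HMOX1 interaction leaving out any 1 of smooth control replicate 1 or 2, fractal control replicate 1, 2 or 3, fractal cytokines replicate 1, 2 or 3, smooth THP-1 replicate 2 or 3 or fractal THP-1 replicate 3 lost the call (adjusted p up to 0.114). The interactions share libraries with the comparisons above. For TXN and TXNRD1 the THP-1 interactions were -0.18 (SE 0.12, adjusted p = 0.397) and -0.27 (SE 0.14, adjusted p = 0.214).

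SOD2 and AKR1B1 responses to cytokines on smooth include smooth cytokines replicate 2. Without it the AKR1B1 interaction was -1.74 (adjusted p = 1.23e-08), that of SOD2 -1.25 (adjusted p = 7.73e-06) and that of PRDX1 -0.48 (adjusted p = 0.00809). Without fractal THP-1 replicate 3 the THP-1 interactions of SOD2, GPX3 and NQO1 were 1.26, 1.35 and -0.73, and 5 more were called, among them TALDO1 (-0.56, adjusted p = 2.1e-05) and SOD1 (-0.46, adjusted p = 0.00124).

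**Figure D3:**
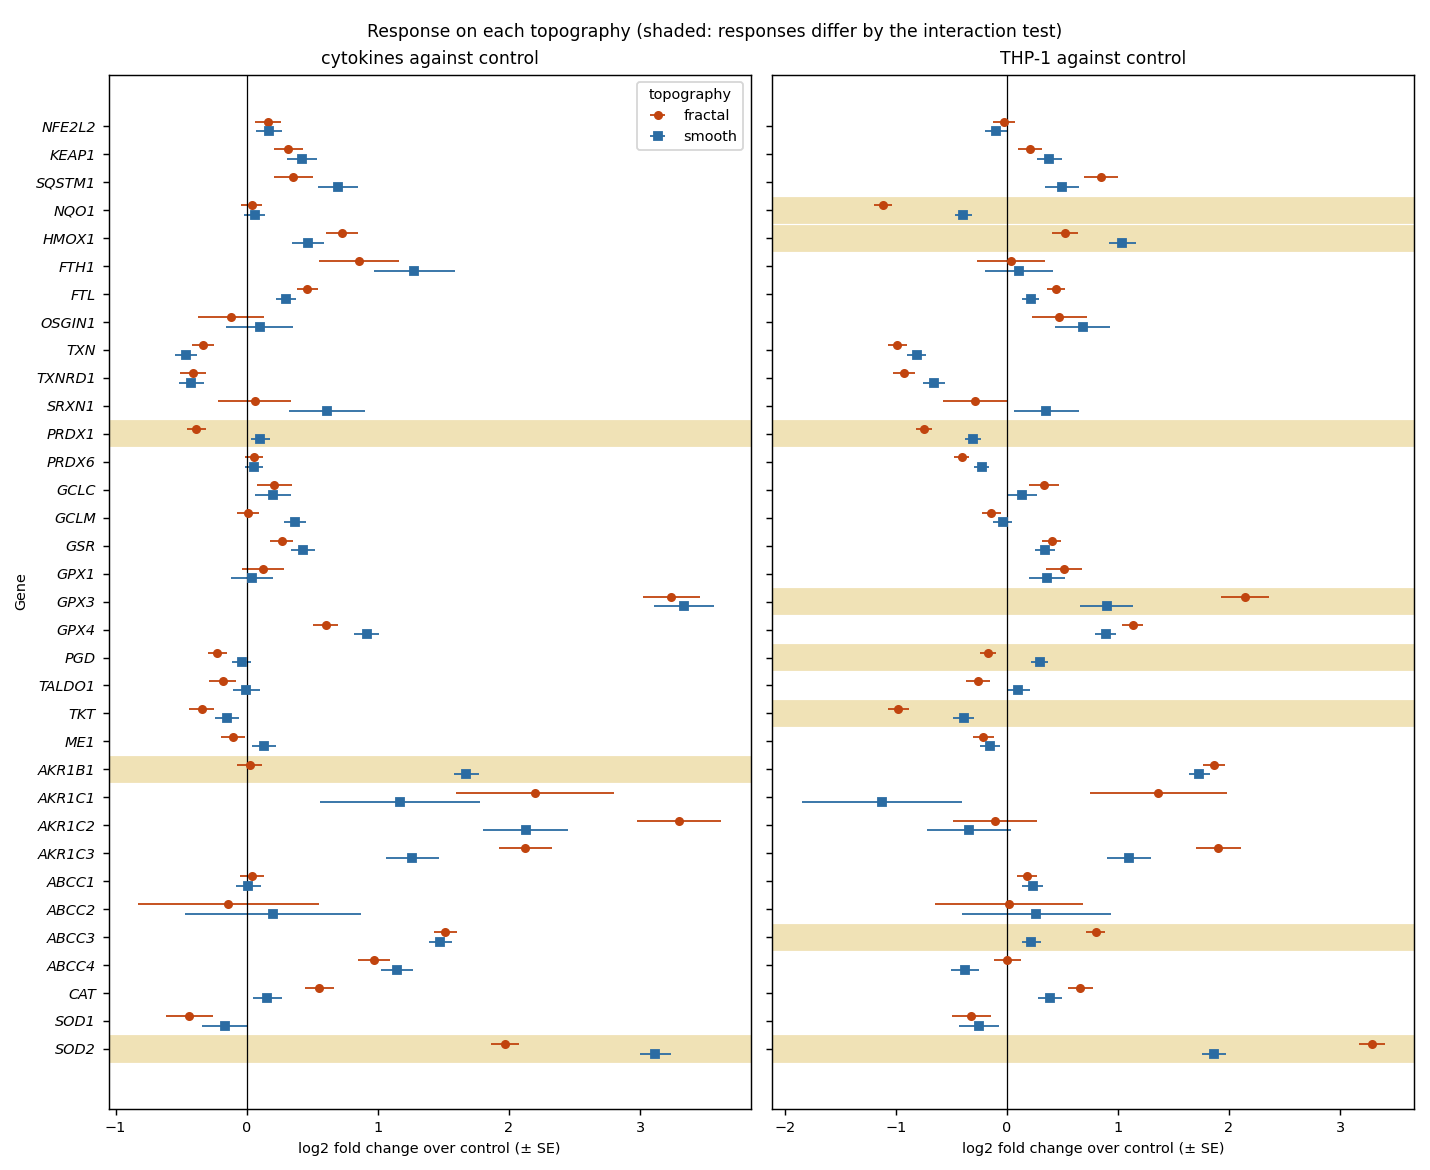
Log2 fold change over the control of the same surface (x axis, whiskers ± SE) for the 34 tested members (y axis), on fractal (orange circles) and smooth (blue squares), with cytokines at left and THP-1 at right. Shaded rows passed the interaction test. For AKR1B1 with cytokines the fractal point stands at 0.021 and the smooth one at 1.67.

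**Figure D4:**
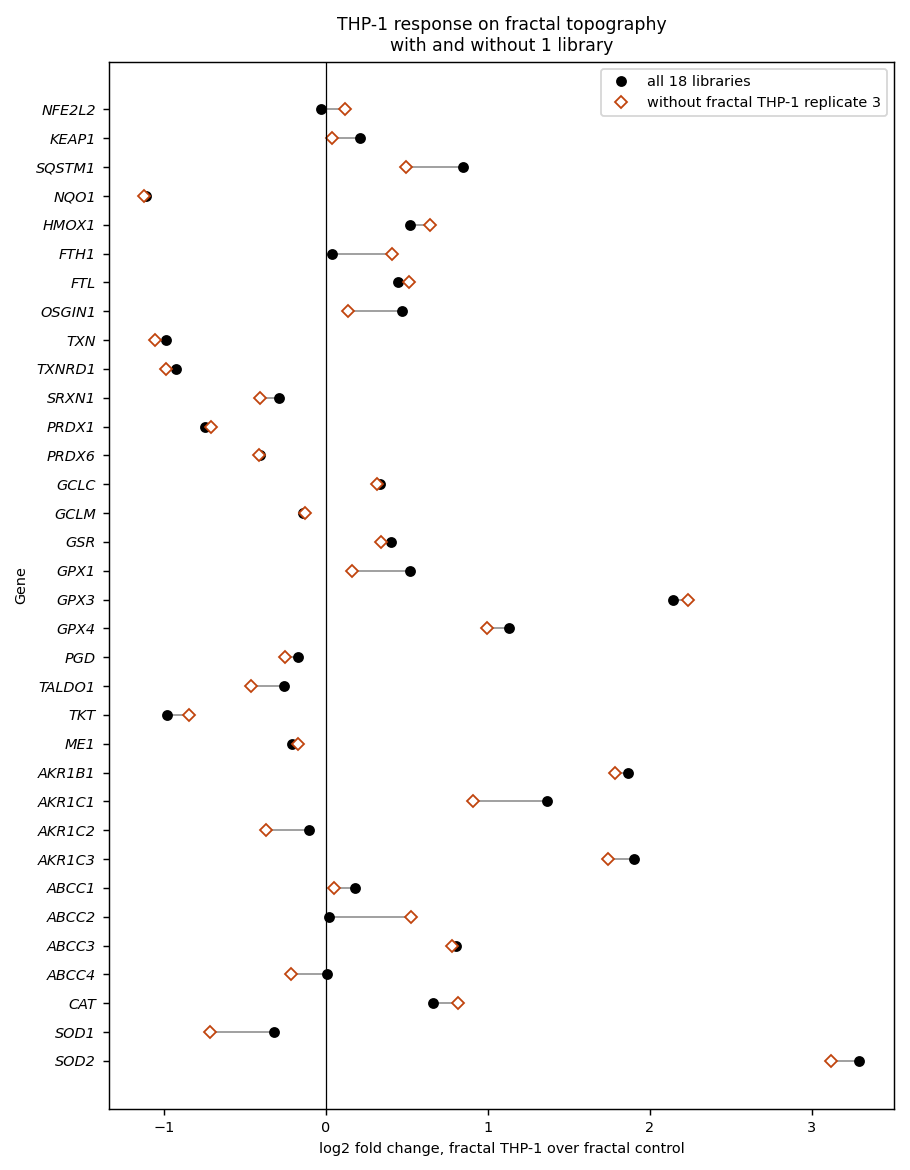
Log2 fold change of THP-1 over control on fractal (x axis) for each tested member (y axis), from all 18 libraries (filled circles) and without fractal THP-1 replicate 3 (open diamonds). SOD1 stands at -0.32 with it and -0.72 without it, GPX1 at 0.52 and 0.16, and NQO1 at -1.11 and -1.12.

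The members together took 0.540 to 0.580% of all counts with THP-1 on fractal and 0.483 to 0.507% on smooth, 0.530 to 0.549% with cytokines on fractal and 0.619 to 0.632% on smooth, against 0.447 to 0.451% in fractal controls and 0.406 to 0.412% in smooth controls. The libraries of the 6 groups do not overlap in this share except those with THP-1 and with cytokines on fractal. Abundant members weigh most in it. From smooth controls to cytokines on smooth, the mean went from 585 to 1419 CPM for FTH1, 107 to 931 for SOD2 and 113 to 360 for AKR1B1. The 2 members that fell by a call there were TXN (142 to 103 CPM) and TXNRD1 (427 to 319 CPM). With THP-1 on fractal 13 members rose and 7 fell by a call. Per kilobase of exon, FTL (467 CPM per kb), FTH1 (288), GPX1 (143), PRDX1 (126) and TXN (124) were the most abundant members in smooth controls. SOD2 stood at 6.51 there and at 56.5 CPM per kb with cytokines on smooth. By group mean, 13 of the 34 tested members were lowest in smooth controls and 0 highest there, while 9 were highest with cytokines on fractal and 8 with THP-1 on fractal. THP-1 on fractal was also the lowest group for 8 members, and fractal controls were highest for 7 and lowest for 5. The same counts were not made over all genes. Without fractal THP-1 replicate 3 the numbers 13, 0, 9 and 8 became 13, 0, 8 and 7, and 10 members were lowest with THP-1 on fractal. SQSTM1, OSGIN1, GPX1 and ABCC1 were highest with THP-1 on fractal only with that library counted, and FTL, ABCC2 and CAT only without it.

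The rest of the pathway was read from 4 further lists. Of 12 partners and regulators of NRF2, all tested, the numbers called were 2 higher and 1 lower with cytokines on fractal, 1 higher and 1 lower with cytokines on smooth, 3 higher and 4 lower with THP-1 on fractal and 0 higher and 6 lower with THP-1 on smooth, with the shares of all genes given above. In the same order the list's median log2 fold changes were 0.081, 0.032, -0.026 and -0.17. For the count of 0 rises with THP-1 on smooth by edgeR, 2 had an unadjusted p under 0.05 and DESeq2 called 2. SESN2, the stress-inducible sestrin that promotes degradation of KEAP1, had 21.6, 20.4 and 23.3 CPM with THP-1 on fractal, against 47.6, 53.3 and 50.8 CPM in fractal controls (log2 fold change -1.22 ± 0.19, adjusted p = 3.58e-05). It had 24.9, 24.8 and 23.5 CPM with THP-1 on smooth, against 87.4, 86.6 and 89.7 CPM in smooth controls (log2 fold change -1.85 ± 0.19, adjusted p = 4.43e-07). It fell with cytokines on smooth (log2 fold change -1.33 ± 0.19, adjusted p = 2.51e-05), had a change of 0.22 on fractal that was not called, and gave an interaction of 1.55 (SE 0.26, adjusted p = 0.00196). NFE2L1, a relative of NRF2, fell with THP-1 on fractal (log2 fold change -0.33 ± 0.074, adjusted p = 0.000629) and on smooth (log2 fold change -0.45 ± 0.074, adjusted p = 3.68e-05). MAFG, a small MAF partner, rose with THP-1 on fractal (log2 fold change 0.59 ± 0.10, adjusted p = 2.74e-05). BACH2, a low gene of the list, differed more there, with 42, 59 and 23 counts against 1, 1 and 5 in fractal controls. With THP-1 on smooth BACH2 had 29, 10 and 19 counts, against 7, 5 and 5 in smooth controls, and was not called. NFE2L3, another relative, fell with cytokines on fractal (log2 fold change -0.78 ± 0.078, adjusted p = 3.51e-08), with -0.097 on smooth.

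Of 32 other NRF2 targets, 29 were tested, and the numbers called were 6 higher and 4 lower with cytokines on fractal, 7 higher and 0 lower with cytokines on smooth, 8 higher and 10 lower with THP-1 on fractal and 7 higher and 6 lower with THP-1 on smooth. In the same order the list's median log2 fold changes were -0.027, 0.038, -0.094 and 0.032. For the count of 0 falls with cytokines on smooth by edgeR, 2 had an unadjusted p under 0.05 and DESeq2 called 1. SLC7A11, the cystine importer that feeds glutathione synthesis, fell with THP-1: it had 22.9, 27.3 and 34.3 CPM on fractal, against 186, 194 and 204 CPM in fractal controls (log2 fold change -2.80 ± 0.20, adjusted p = 5.18e-09). It had 45.04, 42.1 and 40.03 CPM on smooth, against 229.6, 223 and 227 CPM in smooth controls (log2 fold change -2.42 ± 0.20, adjusted p = 5.63e-08). With cytokines its changes were -0.027 on fractal and -0.37 on smooth, neither called. MGST1, a microsomal glutathione transferase, had 64.99, 56.9 and 53.3 CPM with THP-1 on fractal, against 38.1, 34.2 and 35.8 CPM (log2 fold change 0.70 ± 0.095, adjusted p = 1.07e-06). It had 34.2, 37.6 and 34.9 CPM with THP-1 on smooth, against 38.6, 37.6 and 34.3 CPM (-0.052, not called). With cytokines it rose on fractal (log2 fold change 0.94 ± 0.095, adjusted p = 3.94e-08) and on smooth (log2 fold change 0.96 ± 0.095, adjusted p = 2.4e-08). EPHX1, the microsomal epoxide hydrolase, rose in all 4, by 0.61 and 0.91 with cytokines and 0.77 and 0.51 with THP-1, on fractal and smooth in turn. Between surfaces, TRIM16 and its near copy TRIM16L, ubiquitin ligase family genes whose reads may be shared, were lower on fractal with cytokines (log2 fold change -0.60 ± 0.10, adjusted p = 0.000415 and -0.62 ± 0.12, adjusted p = 0.00158), with interactions of -0.74 (SE 0.14, adjusted p = 0.00305) and -0.91 (SE 0.17, adjusted p = 0.00217). MGST1 was higher on fractal with THP-1 (log2 fold change 0.72 ± 0.095, adjusted p = 4.2e-06).

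Of 25 other antioxidant enzymes, 24 were tested, and the numbers called were 5 higher and 1 lower with cytokines on fractal, 2 higher and 1 lower with cytokines on smooth, 3 higher and 7 lower with THP-1 on fractal and 3 higher and 6 lower with THP-1 on smooth. In the same order the list's median log2 fold changes were -0.041, 0.070, -0.096 and -0.22. PRDX3, the mitochondrial peroxiredoxin, fell in all 4. It had 76.2, 75.7 and 70.5 CPM with THP-1 on fractal, against 149.9, 154 and 155 CPM in fractal controls (log2 fold change -1.04 ± 0.077, adjusted p = 3.26e-11). It had 111, 104 and 99.1 CPM with THP-1 on smooth, against 149, 156 and 148 CPM (log2 fold change -0.53 ± 0.076, adjusted p = 4.93e-06). With cytokines the changes were -0.57 (SE 0.076, adjusted p = 2.47e-06) on fractal and -0.48 (SE 0.076, adjusted p = 3.01e-05) on smooth. PON2, an intracellular lactonase with antioxidant activity, rose with cytokines on fractal (log2 fold change 0.43 ± 0.11, adjusted p = 0.00458) and smooth (log2 fold change 0.40 ± 0.11, adjusted p = 0.00814) and with THP-1 on fractal (log2 fold change 0.65 ± 0.11, adjusted p = 2.42e-05). For cytokines on smooth leaving out smooth cytokines replicate 1 lost the call (adjusted p = 0.0962). Of 18 sources of oxidants, 11 were tested, and the numbers called were 2 higher and 4 lower with cytokines on fractal, 3 higher and 4 lower with cytokines on smooth, 4 higher and 3 lower with THP-1 on fractal and 3 higher and 3 lower with THP-1 on smooth. In the same order the list's median log2 fold changes were -0.004, 0.025, 0.11 and 0.36. CYBA, the p22phox subunit shared by NADPH oxidases, had 274, 251 and 524 CPM with THP-1 on fractal, against 164, 155 and 158 CPM in fractal controls (log2 fold change 1.13 ± 0.19, adjusted p = 9.92e-05). It had 269.6, 279 and 309.5 CPM with THP-1 on smooth, against 144, 142 and 144 CPM (log2 fold change 1.00 ± 0.19, adjusted p = 0.0006). Fractal replicate 3 is far above the others, and the value without it was 0.72. Raw counts of CYBA were also higher with cytokines on smooth, at 5250, 5857 and 6002, against 2460, 2476 and 1983 in smooth controls. On fractal the raw counts were 3166, 4051 and 3350 with cytokines, against 2864, 3313 and 2708 in fractal controls. These counts are not scaled to library size. On fractal, library totals were 15564940 to 16596955 with cytokines and 17357103 to 21264180 in controls, so the raw counts there understate the level with cytokines relative to controls. On smooth, totals were 16980396 to 19177212 with cytokines and 13990684 to 17395338 in controls. NOX4, the constitutively active NADPH oxidase of kidney, rose with cytokines on fractal (log2 fold change 1.97 ± 0.30, adjusted p = 1.99e-05). CYBB, the phagocyte oxidase subunit, had 13, 4 and 13 counts with THP-1 on fractal and 14, 21 and 22 counts with THP-1 on smooth, against 0, 0 and 1 counts in fractal controls and 0, 0 and 0 in smooth controls. It moved with the macrophage markers given above.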

How the data were processed

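RNA of podocytes was measured by RNA-seq in 18 libraries, 3 in each of 6 groups set by surface and treatment as the labels name them. The authors deposited raw counts per gene with gene-wide columns such as symbol and length. Per the labels' protocols RNA was taken with the PicoPure kit, and poly-T selected, non-strand-specific libraries were read as pairs of 150 bases on a NovaSeq X Plus. The submitters' processing notes name HISAT2 2.0.5, featureCounts 1.5.0-p3, the CASAVA software and, as build, GRCh38/hg38. The annotation is not given in the sources used here, and no strand was kept, so genes that overlap on opposite strands cannot be separated. Positions are those of GENCODE 29, which held all 58735 IDs. Totals ran over 11488204 to 21264180 counts; depth limits members with few counts most.

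Counts were analysed with edgeR 4.0.16 (R 4.3.3): TMM scaling, filterByExpr (minimum count 10, minimum total 15), a group-means model on all 18 libraries without a replicate block, and robust quasi-likelihood F-tests. This left 16129 genes, over which p-values were adjusted by Benjamini-Hochberg within each of 9 comparisons, with 0.05 as threshold. The standard error (SE) is the absolute log2 fold change divided by the square root of F, and intervals are 1.96 SE to each side. The pipeline was tested on simulated data. Of the 37 members, 3 were too low to be tested. The symbol SOD2 had 2 IDs, of which the one with more counts was used. Members called in a comparison were named, up to 10 in each direction by size, and a few central members also where they missed the threshold. Promoter sequences came from RefSeq. Alternatives were RLE and upper-quartile scaling, no filter, DESeq2 1.42.0, only the groups compared, a replicate block, each library left out, and both libraries that stood apart left out. The members and the other gene lists were chosen with earlier results of these data known.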

Additional observations from a re-analysis of the deposited data

Results flagged for a closer look

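For 11 member responses the interaction test found a difference between surfaces (fractal response minus smooth response, log2 scale, edgeR, p-values adjusted by Benjamini-Hochberg). With THP-1 macrophages the difference was positive for SOD2 (1.43), GPX3 (1.25) and ABCC3 (0.58). It was negative with THP-1 for NQO1 (-0.72), TKT (-0.59), HMOX1 (-0.52), PGD (-0.47) and PRDX1 (-0.44). With cytokines it was negative for AKR1B1 (-1.65), SOD2 (-1.15) and PRDX1 (-0.49). SOD2 and PRDX1 are the members in both sets, and SOD2 has opposite signs in them. The levels behind each value, and the libraries they rest on, stand in the account of each gene.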

How the results depend on the processing

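Of 102 member calls, 84 were kept in all 18 fits that left out 1 library, and no setting reversed the sign of any of them. Calls kept numbered 101 with DESeq2, 100 with RLE, 100 with upper-quartile scaling, 95 with no filter, 93 with only the groups compared, and 99 without the 2 libraries that stood apart. Counts of members called moved most in the comparisons between surfaces. Fitting only the groups compared gave 15 for fractal against smooth in controls (2 in the fit of all libraries), 4 with THP-1 (8) and 8 for the cytokine interaction (3), where 19.4%, 9.42% and 6.47% of all genes were called. With both fractal THP-1 replicate 3 and smooth cytokines replicate 2 left out, the counts were 8 in controls, 15 with cytokines (6 with all libraries), 13 with THP-1, 8 for the cytokine interaction and 13 for the THP-1 interaction (8 with all), where 7.17%, 9.42%, 25.5%, 8.82% and 22.0% of all genes were called. Leaving out 1 library gave 18 to 22 for THP-1 on fractal, 17 to 24 for THP-1 on smooth, 16 to 22 for cytokines on fractal, and 16 to 19 for cytokines on smooth. The shares of all genes called in those fits ran over 43.0% to 51.6%, 27.4% to 42.6%, 18.9% to 33.4% and 19.3% to 33.1%. Between surfaces leaving out 1 library gave 6 to 12 with THP-1, 3 to 13 with cytokines and 1 to 6 in controls, and 7 to 12 and 3 to 9 for the THP-1 and cytokine interactions. In the same order the shares of all genes were 14.0% to 23.1%, 2.95% to 7.76%, 0.780% to 5.09%, 9.73% to 19.6% and 1.61% to 6.78%. The 6, 13 and 9 between surfaces in controls, with cytokines and for the cytokine interaction came without fractal THP-1 replicate 3. The replicate block left the counts within 1.5 times: 20 for THP-1 on each surface, 19 and 17 for cytokines on fractal and smooth, 8, 5 and 2 between surfaces with THP-1, with cytokines and in controls, and 7 and 3 for the THP-1 and cytokine interactions. Replicate numbers marked no pairing: same-numbered libraries of different groups correlated by -0.07 to 0.06 in their deviations from the group means over 45 pairs, and 7 of 18 libraries correlated best with their own number. The cause of these shifts was not tested.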

Other observations

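Among the other NRF2 targets, 5 genes of heme and iron handling were picked after their values were seen, and each was called with THP-1 macrophages on at least 1 surface (log2 fold change of THP-1 over control, edgeR's quasi-likelihood test with adjustment over all genes tested). Because of that choice the number called says nothing about such genes as a set. Of all genes, 50.5% were called with THP-1 on fractal and 35.1% on smooth. The biliverdin reductases, which turn the biliverdin made by heme oxygenase into bilirubin, fell: BLVRA averaged 35.1 ± 7.56 CPM with THP-1 on fractal, against 45.5 ± 1.27 CPM in fractal controls (SD, n = 3 each), and changed by -0.38 (SE 0.12, adjusted p = 0.0109), a call that was lost without fractal THP-1 replicate 2 (adjusted p = 0.078). On smooth BLVRA averaged 28.8 ± 2.05 CPM with THP-1, against 42.2 ± 1.6 CPM in controls, a change of -0.55 (SE 0.12, adjusted p = 0.00086). BLVRB changed by -0.51 (SE 0.16, adjusted p = 0.00946) on fractal and -0.61 (SE 0.16, adjusted p = 0.00374) on smooth. FECH, which places iron in heme, fell on fractal by 0.35 (SE 0.093, adjusted p = 0.00306) and stood at -0.01 (SE 0.093, adjusted p = 0.962) on smooth.

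The heme importer SLC48A1 rose with THP-1 on smooth, to 27.0 ± 0.398 CPM, against 14.6 ± 0.405 CPM in smooth controls, a change of 0.89 (SE 0.16, adjusted p = 0.000127). On fractal it had 18.3 ± 6.28 CPM, against 14.9 ± 0.217 CPM in controls, a change of 0.31 (SE 0.16, adjusted p = 0.12). Replicate 3, at 11.4 CPM, lies below the controls and the 2 others, at 23.8 and 19.7 CPM, above them; without it the change was 0.54 (adjusted p = 0.000368). The iron exporter SLC40A1 (ferroportin) averaged 5.18 ± 0.74 CPM with THP-1 on fractal, against 1.43 ± 0.287 CPM in fractal controls, and changed by 1.84 (SE 0.35, adjusted p = 8.75e-05). On smooth it averaged 3.07 ± 1.18 CPM, against 1.28 ± 0.531 CPM, a change of 1.25 (SE 0.36, adjusted p = 0.00842) that was lost without smooth control replicate 3 or smooth THP-1 replicate 2 (adjusted p up to 0.0601). Macrophages express SLC40A1 as well. The summed level of the macrophage markers given with the libraries was higher in the THP-1 groups than in controls, although several of those markers had almost no counts. The part of macrophage RNA in these values was not tested.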
